A study of Homo sapiens with 30 samples.

Results

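The libraries described here measured how sodium arsenite changed cytosol RNA in cells that express wild-type TIA1a. They were chosen by title, as the 3 libraries of WT cytosol RNA from cells given tetracycline and arsenite (Cytosol_WT_tet_ars) against the 3 from cells given tetracycline alone (Cytosol_WT_tet), 6 of the 30 libraries in the series. All 6 came from FT293-GFP-TIA1aWT, a stably transfected derivative of Flp-In T-REx HEK293, an established human embryonic kidney line built to carry transgenes that tetracycline switches on. The transgene encodes the wild-type a isoform of TIA1 fused to GFP, and both groups received tetracycline, so neither is free of the induced protein. The treated cells were exposed to 0.5 mM NaAsO2 for 60 min. The labels call the RNA cytosol, and the protocol says it came from cellular extracts; how nuclei were removed, and the dose and duration of tetracycline, are not given in the sources used here, and the labels do not say that replicates were separate cultures, so p-values measure the spread between these libraries, which may be technical. Libraries set beside them were WT cytosol without tetracycline, the WDM line (GFP-TIA1a with the Welander distal myopathy mutation) treated in the same ways, and the WT granule fraction, pulled down through GFP from a pelleted lysate.

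Arsenite binds thiol groups of proteins and causes oxidative and proteotoxic stress. Cells answer with kinase signalling that switches on immediate-early genes within minutes, with heat-shock, metal and antioxidant programmes, and with phosphorylation of the initiation factor eIF2α, which blocks most translation. Messenger RNAs released from polysomes then gather with proteins such as TIA1 and G3BP1 in stress granules, so the RNA of a lysate can change through transcription, decay or movement between compartments.

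The 6 libraries held 12336703 to 13546512 counts with tetracycline and 12499022 to 13105930 with arsenite, and 16670 of the table's 60664 genes passed the low-count filter. TIA1 had 1 count over the 6 libraries, so the transgene could not be seen in these counts. Of 10 HEK293 markers 9 reached 1 CPM (counts relative to the library total, in the usual CPM unit, with TMM factors that adjust for composition), summing to 1540 to 1680 CPM with tetracycline and 1450 to 1500 CPM with arsenite. No immune, endothelial or hepatocyte marker reached 1 CPM, whereas 3 of 6 fibroblast markers did (COL1A1, COL3A1 and LUM, the list summing to 9.84 to 12.1 CPM and to 8.30 to 10.5 CPM), as did 2 of 4 erythroid markers (HBA1 and HBA2). Tetracycline replicate 1 stood apart from the other tetracycline libraries. Its counts differed from theirs with a chi-square of 23.9 and 24.2 per degree of freedom, against 2.80 to 4.02 in the other pairs within a group. The mean log2 CPM of 11 long noncoding RNAs (lncRNAs) known to stay in the nucleus was 5.60 in that library, 5.01 and 4.93 in the other tetracycline libraries, and 5.86, 5.92 and 5.81 with arsenite. Ribosomal protein genes took 4.98% of its counts, 5.97% and 5.81% in the others, and 4.83% to 5.09% with arsenite. This nuclear RNA level therefore moved with arsenite and also between replicates. For most lists below the counts are also given with it as a covariate, and for many of them without that library. Because all 3 arsenite libraries lay above all 3 tetracycline libraries in this level, the covariate and the treatment cannot be fully told apart.

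**Figure D1:**
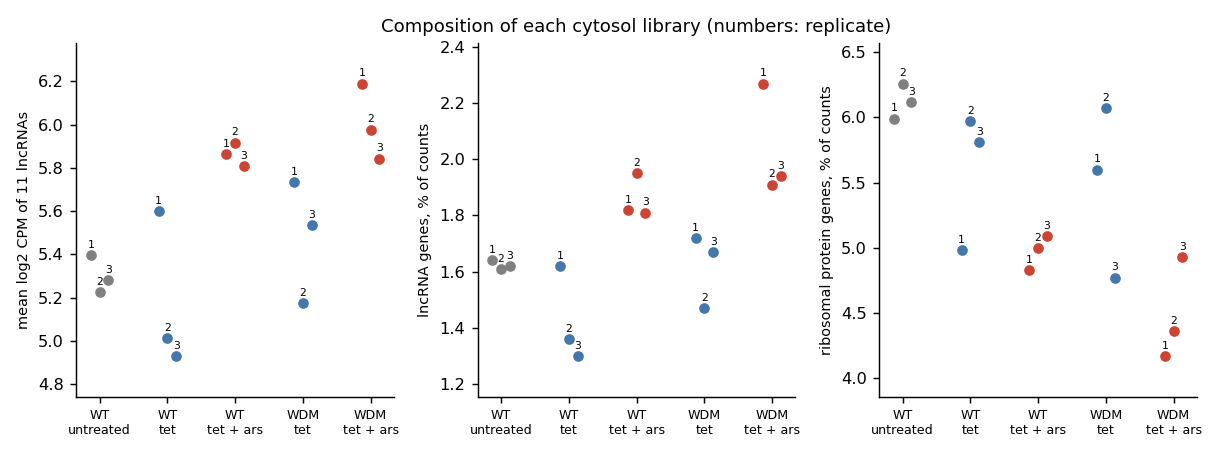
Mean log2 CPM of 11 nuclear lncRNAs, share of counts in lncRNA genes (%) and share in ribosomal protein genes (%) for each cytosol library of 5 groups (WDM untreated is not drawn; tet, tetracycline; ars, arsenite). Each point is a library with its replicate number, and WT tetracycline replicate 1 lies nearer the arsenite libraries (5.60 against 5.81 to 5.92) than replicates 2 and 3 do.

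Called rises with arsenite had a larger median size than called falls. Of 16670 genes, 2279 rose (13.7%) and 2559 fell (15.4%) at an edgeR Benjamini-Hochberg adjusted p under 0.05. These are shares of bulk RNA, in which fewer cells of a kind and less RNA per cell cannot be told apart. The median log2 fold change of the genes that rose was 0.74, and that of the genes that fell was -0.38. A rise of at least 1 on the log2 scale was called for 727 genes (4.36%), and a fall of that size for 33 (0.198%). Without tetracycline replicate 1 these counts were 1346 and 52, and with the nuclear lncRNA covariate 211 and 129. Of the 727, 372 were lncRNAs and 311 protein-coding, and 190 had a mean of at least 5 CPM with arsenite. Of the 33, 10 were protein-coding and 1 had a mean of at least 5 CPM with tetracycline. All 3 libraries of a group lay above all 3 of the other for 2121 of the genes that rose (12.7% of those tested) and 2252 of those that fell (13.5%).

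How calls divided into rises and falls moved with the scaling. When library size replaced the TMM factors (which correct for composition), the median of all genes moved from -0.02 to 0.11 and 3302 genes rose and 1002 fell, so that 76.7% of calls were rises in place of 47.1%. Without tetracycline replicate 1, 3370 genes rose and 3834 fell. With the nuclear lncRNA level as covariate, 880 rose and 1508 fell, of which 442 and 550 had been called in the same direction without it. In tetracycline replicate 1 itself, 68.6% of the genes that rose lay above the other tetracycline libraries (37.9% of all tested) and 79.3% of the genes that fell lay below them (45.3% of all tested).

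EGR1, FOS and FOSB, all immediate-early transcription factors, had the largest rises among genes of at least 5 CPM. The AP-1 list holds the FOS, JUN, ATF and small MAF proteins that dimerise on DNA. Among its 14 tested members 8 rose (57.1%, against 13.7% of all genes) and none fell. The median log2 fold change was 0.76 against -0.02 over all genes. The 8 rose in every fit that left out 1 of the 6 libraries and with the covariate. BATF3 fell without tetracycline replicate 1. Summed over the list, the tetracycline libraries had 427, 357 and 373 CPM and the arsenite libraries 821, 781 and 820 CPM.

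EGR1 (chromosome 5, 138465479 to 138469303, GRCh38), a zinc-finger factor switched on by MAP kinases through the serum response factor, had 2.38, 0.777 and 1.5 CPM with tetracycline and 122, 100 and 101 CPM with arsenite. The lowest arsenite library was far above the highest tetracycline library, and the log2 fold change was 6.07 (standard error, SE, 0.21, with an edgeR Benjamini-Hochberg adjusted p of 1.53e-13). FOS (chromosome 14, 75278826 to 75282230), the founding AP-1 subunit, had 3.05, 2.85 and 5.64 CPM against 112, 112 and 124 CPM. Its groups did not overlap and it rose by 4.93 (SE 0.256, with an edgeR Benjamini-Hochberg adjusted p of 6.52e-09). FOSB (chromosome 19, 45467995 to 45475179), its relative, had 2.01, 0.863 and 0.352 CPM against 12.3, 11.4 and 13.9 CPM, so that the tetracycline libraries differed severalfold among themselves while the arsenite libraries were close together. FOSB rose by 3.48 (SE 0.368, with an edgeR Benjamini-Hochberg adjusted p of 1.24e-05).

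The JUN side of the dimer moved less. JUN (chromosome 1, 58776845 to 58784048) had 249, 193 and 189 CPM with tetracycline and 439, 400 and 415 CPM with arsenite, a log2 fold change of 0.99 (SE 0.101, with an edgeR Benjamini-Hochberg adjusted p of 4.53e-06). Its highest tetracycline library was replicate 1, still well under every arsenite library. JUNB rose by 1.24 and JUND by 0.59. FOSL1 (chromosome 11, 65892049 to 65900573) rose by 2.26, MAFF (chromosome 22, 38200767 to 38216507), a small MAF that lacks an activation domain, by 1.92, and ATF3, a stress-induced member of the ATF family, by 0.94.

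Among 25 tested members of the list of EGR, serum-response and NR4A early genes, 9 rose and 3 fell, with a median of 0.49. With the covariate 10 rose, 7 of them among the 9 (all but CCN1 and NR4A1), and none fell. IER2 (chromosome 19, 13150411 to 13154911), an early nuclear protein, had 35.6, 32.4 and 30.7 CPM with tetracycline and 114, 105 and 118 CPM with arsenite. Those groups were tight and far apart, and the log2 fold change of 1.77 had a SE of 0.097 (edgeR Benjamini-Hochberg adjusted p 2.82e-10). EGR3 had 2 counts in each tetracycline library and 25, 25 and 20 counts with arsenite, at least 6.67-fold higher when set against a floor of 3 counts in the smallest library of the group (0.264 CPM). The anti-apoptotic MCL1 rose by 0.43, CCN1, a secreted matrix protein, by 0.75, and SIK1, NR4A1, CSRNP1 and ID1 by 0.49 to 0.61. ID1 was not called in any fit that left out 1 library.

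The 3 that fell were ID2, HES1 and MYC, regulators whose mRNAs decay fast. ID2 (chromosome 2, 8678845 to 8684461) had 53, 73.5 and 66.4 CPM against 34.6, 35.9 and 40.7 CPM, a log2 fold change of -0.79 (SE 0.131, with an edgeR Benjamini-Hochberg adjusted p of 0.000255). HES1 fell by 0.49 and MYC by 0.33, and neither they nor ID2 were called with the covariate. In the granule fraction the same 3 RNAs rose with arsenite, by 1.41 for ID2, 0.86 for HES1 and 0.88 for MYC. The difference between fractions was not tested.

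**Figure D2:**
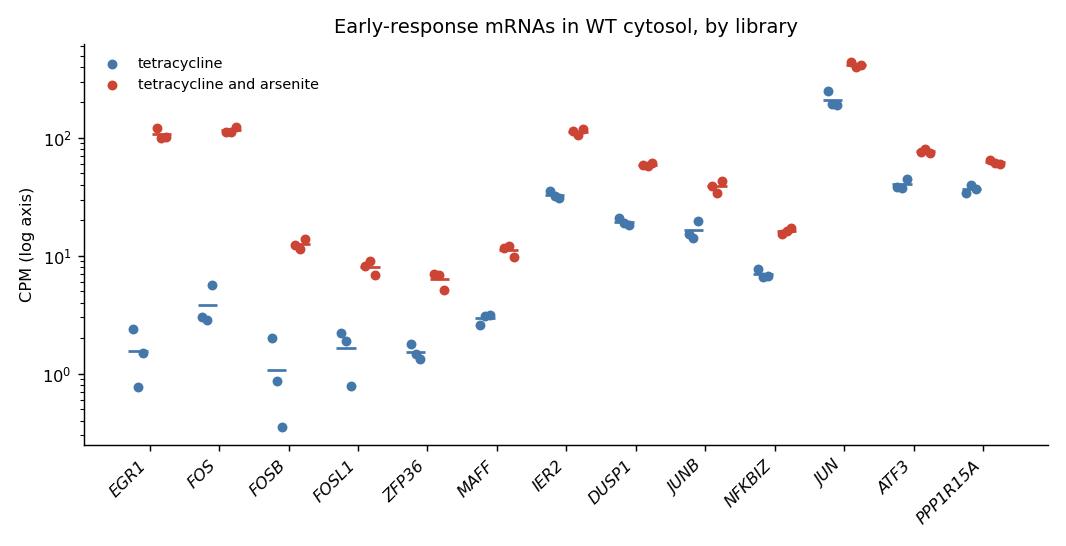
CPM (log axis) of 13 early-response mRNAs in each WT cytosol library, with tetracycline (blue) and with tetracycline and arsenite (red). Points are libraries and bars are means of 3; in each gene drawn the 3 red points lie above the 3 blue points, from 122, 100 and 101 against 2.38 or less for EGR1 to 60.4 or more against 39.9 or less for PPP1R15A.

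Promoter sequences are shown for EGR1, which had the largest rise among genes of at least 5 CPM. They are also shown for 3 rising genes, chosen because they carry the letters of a cyclic AMP response element. RefSeq promoters (GRCh38.p14) were searched from 250 bases before the start to 50 bases after it, on both strands. The motifs were the CArG box bound by serum response factor, the AP-1 letters TGANTCA, the cyclic AMP response element TGACGTCA, the heat-shock letters GAANNTTC, the antioxidant-response letters TGACNNNGC and the ETS letters CCGGAAG. Only the 250 bases before the start are printed, 5′ to 3′ in the direction of the gene, and capitals mark the CArG box in EGR1 and TGACGTCA in the others.
EGR1 (chr5:138465229-138465478, plus strand): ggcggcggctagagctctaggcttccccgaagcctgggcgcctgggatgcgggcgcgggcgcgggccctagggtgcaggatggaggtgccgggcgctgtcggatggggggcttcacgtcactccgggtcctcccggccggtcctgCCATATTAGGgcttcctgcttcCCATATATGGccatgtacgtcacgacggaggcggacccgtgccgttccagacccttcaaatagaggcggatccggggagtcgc
MAFF (chr22:38201744-38201993, plus strand): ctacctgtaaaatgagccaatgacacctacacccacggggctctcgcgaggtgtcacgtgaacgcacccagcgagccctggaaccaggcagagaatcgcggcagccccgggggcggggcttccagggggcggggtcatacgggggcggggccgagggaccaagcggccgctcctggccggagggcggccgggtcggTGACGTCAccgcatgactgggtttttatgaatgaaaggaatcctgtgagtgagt
DUSP1 (chr5:172771196-172771445, minus strand): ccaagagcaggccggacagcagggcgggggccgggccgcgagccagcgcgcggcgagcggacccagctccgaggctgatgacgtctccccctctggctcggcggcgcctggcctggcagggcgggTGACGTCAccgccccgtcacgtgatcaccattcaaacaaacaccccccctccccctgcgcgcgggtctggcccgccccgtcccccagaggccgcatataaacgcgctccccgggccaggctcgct
JUND (chr19:18281623-18281872, minus strand): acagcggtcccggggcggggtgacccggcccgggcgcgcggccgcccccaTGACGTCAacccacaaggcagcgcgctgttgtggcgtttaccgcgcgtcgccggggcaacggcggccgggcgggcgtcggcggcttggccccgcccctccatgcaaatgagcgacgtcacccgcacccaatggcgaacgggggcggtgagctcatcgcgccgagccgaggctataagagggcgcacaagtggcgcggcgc

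The EGR1 window held 2 CArG boxes, whose first bases lay 105 and 83 bases before the start. TGACGTCA began 54 bases before the start in MAFF, 125 in DUSP1 and 200 in JUND, and none of these matches overlapped another motif searched. Of 19 promoters found for the 23 genes of the early and feedback lists that rose, 4 held TGACGTCA (21.1%), 1 held a CArG box (5.26%) and none held TGANTCA. Of 19 promoters found for the 27 members of these lists that were not called, TGACGTCA, the CArG box and TGANTCA were each held by 1 (5.26%). Among 11281 promoters of tested genes the shares were 3.34%, 1.01% and 4.41%, and among all 27305 promoters given there 1.98%, 1.29% and 7.76%. Over the wider set of 320 promoters of genes that rose by at least 1 on the log2 scale, 8.75% held TGANTCA, 3.12% TGACGTCA, 0.938% a CArG box, 7.19% GAANNTTC (4.73% of tested genes), 11.2% TGACNNNGC (15.0%) and 5.00% CCGGAAG (18.0%). Only 11 promoters were found for genes that fell by at least 1, of which 2 held a CArG box and 3 GAANNTTC. A match is a run of letters and was not tested for binding.

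Feedback inhibitors of the kinases that drive these genes rose as well. Of 14 tested dual-specificity phosphatases and Sprouty and SPRED proteins 6 rose (42.9%, against 13.7% of all genes) and none fell (median 0.19). All 6 rose in every fit that left out a library, and 2 of the 6, DUSP1 and DUSP10, with the covariate. DUSP1 (chromosome 5, 172768096 to 172771195), a nuclear phosphatase of p38 and JNK, had 21.1, 18.9 and 18.4 CPM with tetracycline and 59.2, 57.4 and 61.9 CPM with arsenite. The groups were far apart with little spread within them, and it rose by 1.61 (SE 0.109, with an edgeR Benjamini-Hochberg adjusted p of 6.52e-09). DUSP10 rose by 0.77, DUSP8 by 0.91, DUSP16 by 0.46, SPRY4 by 0.88 and SPRED2 by 1.06. None of the 12 KLF factors was called in cytosol (median 0.20), but 3 rose with library size alone, 2 rose without tetracycline replicate 1 and 2 fell with the covariate. In the granule fraction 9 of the 12 rose (median 1.05), and the difference between fractions was not tested. There 3032 of 18366 genes tested rose (16.5%) and 2588 fell (14.1%). KLF2 had 0.173 to 0.372 CPM with tetracycline and 0.232 to 0.603 CPM with arsenite in cytosol, so the groups overlapped, and its log2 fold change in the granule fraction was 2.54 (edgeR Benjamini-Hochberg adjusted p 0.00084).

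Of 22 tested genes of NF-kappaB signalling, cytokines and RNA-binding proteins that destroy AU-rich mRNAs, 10 rose (45.5%) and none fell (median 0.42). The share of all genes that rose was 13.7%, and 6 of the 10 rose in every fit that left out a library. With the covariate 5 rose, all among the 10, and 3 fell (HNRNPD, KHSRP and ELAVL1; median 0.09). ZFP36 (chromosome 19, 39406847 to 39409412), which recruits deadenylases to AU-rich elements, had 1.79, 1.47 and 1.32 CPM against 7.04, 6.94 and 5.08 CPM. It rose by 2.04 (SE 0.239, with an edgeR Benjamini-Hochberg adjusted p of 1.47e-05). NFKBIZ (chromosome 3, 101827991 to 101861022), an atypical nuclear IκB protein, had 7.75, 6.56 and 6.70 CPM against 15.2, 16.3 and 17.2 CPM. It rose by 1.21 (SE 0.142, with an edgeR Benjamini-Hochberg adjusted p of 1.47e-05), and ZC3H12A, an RNase of inflammatory mRNAs, rose by 0.75 and NFKBIA by 0.49. The groups of these 4 genes did not overlap. Of the ligands, CXCL8, CXCL2 and LIF had means of 0.589 to 2.27 CPM with tetracycline and were not called.

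Of 31 heat-shock chaperones and HSF factors 4 rose and 5 fell (median -0.10), that is 12.9% and 16.1%, near the 13.7% and 15.4% of all genes. Without tetracycline replicate 1 there were 4 and 11, and with the covariate 3 and 3. BAG3, DNAJB1 and HSPA1A with its near-identical copy HSPA1B were the risers, by 0.50 to 0.83. HSPA1B (chromosome 6, 31827738 to 31830254), the inducible HSP70, had 408, 420 and 485 CPM with tetracycline and 583, 655 and 648 CPM with arsenite, a log2 fold change of 0.52 (SE 0.101, with an edgeR Benjamini-Hochberg adjusted p of 0.000963). Its groups did not overlap, but cells without tetracycline had a mean of 706 CPM, above both. BAG3, the HSP70 co-chaperone of aggregate clearance, had 28.0, 19.9 and 17.7 CPM against 42.2, 38.8 and 35.9 CPM. With the covariate its log2 fold change was 0.24, not called, while DNAJB1, HSPA1A and HSPA1B rose by 0.77 to 0.89. The cytosolic HSP90 and HSC70 genes HSP90AA1, HSP90AB1 and HSPA8 had log2 fold changes of 0.04, -0.16 and -0.03 and were not called, and the fallers included HSP90B1 and HSPA13, both chaperones of the endoplasmic reticulum.

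In the pathway of the antioxidant factor NRF2, 2 of 30 genes rose (6.67%, against 13.7% of all genes) and 9 fell (30.0%, against 15.4%). The median was -0.16. HMOX1, the haem oxygenase that arsenite is known to induce, had 10.9, 12.3 and 12.9 CPM with tetracycline and 12.2, 14.5 and 13.1 CPM with arsenite. Those ranges overlapped, and the log2 fold change of 0.14 was not called (SE 0.163, with an edgeR Benjamini-Hochberg adjusted p of 0.536). ABCC2, an export pump for glutathione conjugates, rose by 0.90, and the metabolic enzyme ME1 by 0.37 with overlapping groups. NFE2L1, a membrane-bound relative of NRF2, fell by 0.60, and the glutathione and thioredoxin genes GSR and TXN by 0.38 and 0.40, neither of the last pair called with the covariate. Without tetracycline replicate 1 the list counted 6 higher and 12 lower, and with the covariate 2 and 4. Of 6 metal-response genes tested 1 rose and 1 fell (log2 fold change -0.55), and with the covariate 2 rose and none fell. MT2A was the only metallothionein tested. MT1F had 15 counts over the tetracycline libraries and 29 over the arsenite libraries, and the others listed had 0. SRXN1 of the NRF2 list and HSPA6 of the heat-shock list also had 0 counts and were not tested. The ribosomal protein gene RPS10 and the respiratory chain gene SDHA had 0 as well, so 0 counts need not mean absent RNA. MT2A, which binds arsenite and zinc, rose by 0.47 (9.46, 13.0 and 10.6 CPM against 15.9, 14.9 and 15.1 CPM). That call was lost in 5 of the 6 fits that left out a library.

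Of 26 genes of the integrated stress response, which follows eIF2α phosphorylation, 4 rose (15.4%) and 2 fell (7.69%), with a median of -0.07. Over all genes 13.7% rose and 15.4% fell, so the share of the list that rose was near that of all genes. Without tetracycline replicate 1 there were 5 and 5, and with the covariate 5 and 6, and neither fall was called in every fit that left out a library. PPP1R15A (chromosome 19, 48872421 to 48876058), the phosphatase subunit that reverses the eIF2α mark, had 34.4, 39.9 and 37.1 CPM against 64.4, 61.4 and 60.4 CPM. It rose by 0.74 (SE 0.117, with an edgeR Benjamini-Hochberg adjusted p of 0.00017) with no overlap. CHAC1, which degrades glutathione, rose by 1.04 (not called with the covariate), DDIT3 (CHOP) by 0.59 and HERPUD1 by 0.35, whereas ATF4, their upstream factor, had a log2 fold change of -0.17 and was not called. Of 21 growth-arrest and p53-target genes 4 rose (19.0%, against 13.7% of all genes) and 6 fell (28.6%, against 15.4%). The median was -0.01, and with the covariate 4 rose and 3 fell. The risers PLK2, PLK3, GADD45B and FBXW7 changed by 0.52 to 0.73 (all but FBXW7 called with the covariate), and MDM2, the ubiquitin ligase of p53, fell from 435 ± 23.2 to 336 ± 13.3 CPM (SD, n = 3), a log2 fold change of -0.37.

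**Figure D3:**
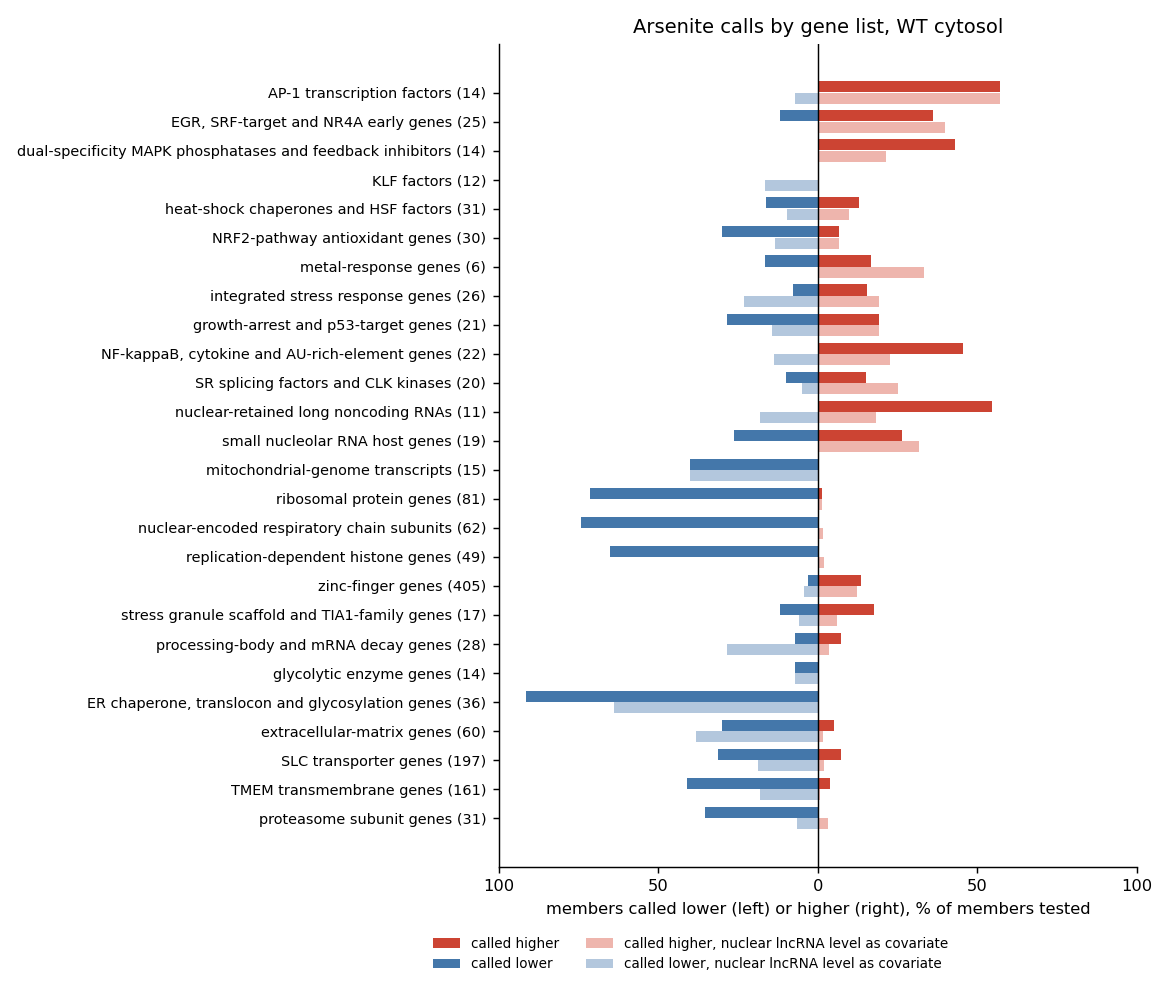
Share of tested members (% of the number in brackets) called higher (right) or lower (left) with arsenite in WT cytosol, for 21 lists written with the design (upper) and 5 lists chosen after the values were seen (lowest). Full colours are the calls of all libraries and pale colours the calls with the nuclear lncRNA level as covariate; AP-1 stays at 57.1% higher, the ER list falls in 91.7%, and ribosomal protein, respiratory and histone genes lose their lower calls with the covariate.

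Messenger RNAs of the secretory pathway fell in cytosol. The list of 36 tested chaperones, translocon subunits and glycosylation enzymes of the endoplasmic reticulum (ER) was chosen after the values were seen, so its counts describe these libraries and support nothing on their own. In it 33 fell (91.7%, against 15.4% of all genes) and none rose, with a median of -0.58. Groups did not overlap for 31 of the 33, and for 2252 of all 2559 genes that fell. Of the 33, 30 fell in every fit that left out a library, 32 without tetracycline replicate 1, and 30 with library size alone. With the covariate 23 fell, 20 of them among the 33. Summed over the list, tetracycline libraries had 11000, 11600 and 12700 CPM and arsenite libraries 7850, 7470 and 7980 CPM, so that tetracycline replicate 1 lay with its own group here.

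HYOU1 (chromosome 11, 119044188 to 119057227), a large HSP70-like chaperone of the ER, had 208, 203 and 224 CPM with tetracycline and 124, 120 and 127 CPM with arsenite, a log2 fold change of -0.77 (SE 0.0739, with an edgeR Benjamini-Hochberg adjusted p of 2.21e-06). CANX (chromosome 5, 179678628 to 179731641), the membrane-bound lectin chaperone calnexin, had 1720, 1820 and 1960 CPM against 1230, 1150 and 1200 CPM. It changed by -0.62 (SE 0.0817, with an edgeR Benjamini-Hochberg adjusted p of 4.04e-05). In both genes every arsenite library lay below every tetracycline library, and with the covariate the log2 fold changes were -0.71 and -0.46. RRBP1, a ribosome receptor, fell by 0.78, the disulfide isomerases PDIA6, PDIA4 and PDIA3 by 0.63 to 0.72, HSP90B1 by 0.61, and the oligosaccharyltransferase subunits RPN1 and DDOST by 0.67 each. HSPA5 (BiP), the main chaperone of the ER lumen, was not called and had a wide spread, with 241, 112 and 137 CPM against 174, 111 and 121 CPM.

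Several of these RNAs moved the other way in the granule fraction. There, 10 of the 36 rose, 4 fell and the median was 0.11 against -0.02 over the genes tested in both fractions. CANX rose by 0.59 (SE 0.21, with an edgeR Benjamini-Hochberg adjusted p of 0.0342), HYOU1 by 0.84, PDIA3 by 0.73, KDELR1 by 0.70 and SSR1 by 0.96, while SSR4 fell by 0.89. The granule libraries are others than the cytosol libraries, and whether the fractions differ in their response was not tested. In WDM cytosol, where 2345 genes rose (14.1%) and 2459 fell (14.8%), 31 of the 36 fell (median -0.52).

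**Figure D4:**
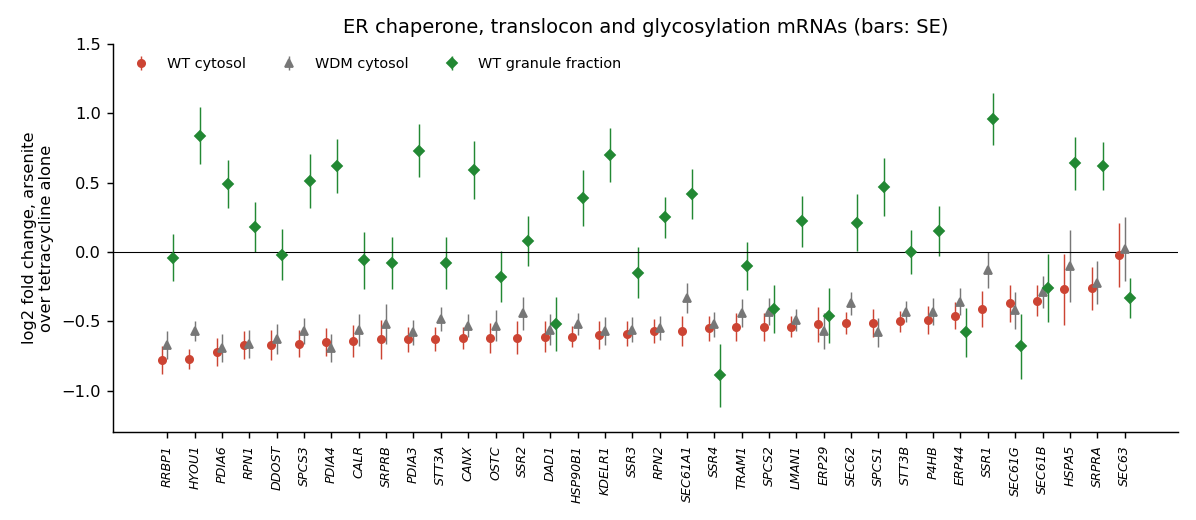
Log2 fold change with arsenite (points, bars are SE) of the 36 ER chaperone, translocon and glycosylation mRNAs in WT cytosol, WDM cytosol and the WT granule fraction, ordered by WT cytosol. The WT cytosol points run from -0.78 to -0.02 and the WDM points lie near them, whereas the granule points spread on both sides of 0, from -0.89 for SSR4 to 0.96 for SSR1.

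Some genes of other secreted and membrane proteins also fell. Of 60 extracellular-matrix genes, also a list chosen after the values were seen, 18 fell (30.0%) and 3 rose (5.0%), with a median of -0.16. Over all genes 15.4% fell and 13.7% rose. With the covariate 15 of the 18 fell. Without tetracycline replicate 1 the list had 14 falls and 10 rises. FBN2 (chromosome 5, 128257909 to 128659185), a fibrillin of elastic fibres, had 667, 463 and 520 CPM against 323, 276 and 312 CPM, a log2 fold change of -0.86 (SE 0.126, with an edgeR Benjamini-Hochberg adjusted p of 9.17e-05). LAMA1 (chromosome 18, 6941742 to 7117797), a basement-membrane laminin chain, had 98.4, 83.2 and 84.1 CPM against 51.8, 44.1 and 47.9 CPM and fell by 0.89. In both, tetracycline replicate 1 was the highest library and no library overlapped, and with the covariate the log2 fold changes were -1.24 and -1.12. The laminin chain LAMB1 and the collagens COL4A2 and COL14A1 fell by 0.43 to 0.60. BMP3, a secreted growth factor, METTL7A, an ER and lipid-droplet protein, AMBN, an enamel matrix protein, and CALHM5, a channel protein, fell by 0.80 to 0.90. HLA-DMB and IGFBPL1 fell by 0.80 and 0.88, and of these 6 METTL7A was the only one called with the covariate. C1GALT1C1L, EP300-AS1 and the histone gene H4C11 fell by 0.83 to 0.96 and were not called with it.

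Large families of small, abundant mRNAs fell by a little. These falls did not hold with the covariate, which cannot be fully told apart from arsenite. Of 81 ribosomal protein genes 58 fell (71.6%, against 15.4% of all genes) and 1 rose (median -0.31). With library size alone 4 fell (median -0.17), and none of the 58 was called in every fit that left out a library. Without tetracycline replicate 1, 76 fell (median -0.41). In WDM cytosol 73 fell (median -0.38), and in the granule fraction 64 fell (median -0.73). RPL4 (chromosome 15, 66498015 to 66524532), a large-subunit protein, had 2350, 3090 and 2990 CPM with tetracycline and 2210, 2240 and 2280 CPM with arsenite. Tetracycline replicate 1 lay nearer the arsenite libraries than its own group, and the log2 fold change was -0.32 (SE 0.116, with an edgeR Benjamini-Hochberg adjusted p of 0.0419), or 0.03 with the covariate. Summed over the list, the tetracycline libraries had 50300, 63900 and 63200 CPM and the arsenite libraries 46700, 47500 and 49100 CPM. RPLP0, RPS2 and RPL7A, the other ribosomal protein genes among the most abundant that fell, changed by -0.29 to -0.33, and by -0.05 to 0.05 with the covariate. The riser was RPL3L, a muscle-type paralog of RPL3, at 0.447, 0.604 and 0.705 CPM against 3.09, 2.26 and 2.80 CPM (log2 fold change 2.21).

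Of 62 nuclear-encoded subunits of the respiratory chain 46 fell (74.2%, against 15.4% of all genes) and none rose (median -0.35). Of 49 replication-dependent histone genes 32 fell (65.3%) and none rose (median -0.40). With library size alone 15 and 18 fell, and with only the groups compared 18 and 27. Without tetracycline replicate 1, 59 and 40 fell. In WDM cytosol 52 and 34 fell (medians -0.37 and -0.40), and 2 histone genes rose. In the granule fraction 24 of 62 and 10 of 46 fell. Only 6 and 13 fell in every fit that left out a library, and with the covariate no member of either list fell. NDUFA4, a cytochrome oxidase subunit, had 107, 142 and 145 CPM against 88.7, 92.0 and 96.2 CPM (log2 fold change -0.51). H4C2, a histone H4 gene, had 236, 291 and 303 CPM against 174, 179 and 188 CPM (-0.62). In both, tetracycline replicate 1 was the lowest of its group. Copies of histone genes are nearly identical, so their counts are uncertain one by one.

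Transcripts of the mitochondrial genome fell in part. Of 15, 6 fell (40.0%, against 15.4% of all genes) and none rose (median -0.41), and 4 of the 6 fell with the covariate. MT-ND6 (chromosome MT, 14149 to 14673, minus strand), the complex I subunit encoded on the strand opposite to most others, had 7.37, 5.70 and 5.99 CPM against 1.78, 2.11 and 3.39 CPM. It fell by 1.39 on a log2 scale (SE 0.195, with an edgeR Benjamini-Hochberg adjusted p of 7.08e-05) with no overlap. MT-ND1 fell by 0.98, MT-ND4 by 0.80 and MT-CO3 by 0.51 (the last not called with the covariate), whereas MT-CO1, another cytochrome oxidase subunit, had a log2 fold change of 0.16 and was not called. Mitochondrial genes took 0.0989% to 0.142% of counts with tetracycline and 0.115% to 0.121% with arsenite.

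Nuclear RNAs rose in the cytosol libraries. Of 11 nuclear-retained lncRNAs, the list behind the covariate, 6 rose (54.5%, against 13.7% of all genes) and none fell (median 0.66). In every fit that left out a library 3 of them rose, and without tetracycline replicate 1 the list had 9 rises and 1 fall. With the covariate 2 rose and 2 fell, but the covariate is the mean of these same lncRNAs, so that fit cannot test the list or its members. NEAT1 (chromosome 11, 65422774 to 65445540), the scaffold of paraspeckles, had 133, 50.0 and 57.8 CPM with tetracycline and 139, 172 and 208 CPM with arsenite. Tetracycline replicate 1 came within a few CPM of the lowest arsenite library, and the log2 fold change was 1.10 (SE 0.347, with an edgeR Benjamini-Hochberg adjusted p of 0.0282), or -0.05 with the covariate, to which NEAT1 itself contributes. MALAT1, the speckle lncRNA, had 367, 168 and 156 CPM against 353, 360 and 296 CPM, with overlap, and was not called. KCNQ1OT1 (chromosome 11, 2608328 to 2699994), an imprinted antisense RNA, had 12.8, 7.86 and 5.9 CPM against 23.7, 25.0 and 20.9 CPM and rose by 1.37, or 0.50 and not called with the covariate (without it, edgeR Benjamini-Hochberg adjusted p 0.000158). In the granule fraction 5 of the 11 fell and 2 rose (median -0.43).

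The same gradient ran through all genes. Genes were ordered by how far their RNA was enriched in the granule fraction over the cytosol of tetracycline-treated WDM cells, libraries that have no part in the WT contrast. Across 13068 protein-coding genes the WT arsenite log2 fold change was higher at higher ratios (Spearman's rho 0.707, a description across genes, which are not independent). In the lowest of 5 equal bins 0.65% of genes rose and 48.3% fell (median -0.31), and in the highest bin 38.9% rose and 0.842% fell (median 0.40). In the same bins the log2 ratios of tetracycline replicate 1 over replicates 2 and 3, none of them given arsenite, had medians of -0.31 and 0.39. With the covariate the medians of the arsenite effect were 0.06 and -0.08. Of 2575 lncRNAs 23.0% rose and 2.17% fell, and the share that rose went from 3.30% in the lowest bin of the ratio to 56.1% in the highest.

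**Figure D5:**
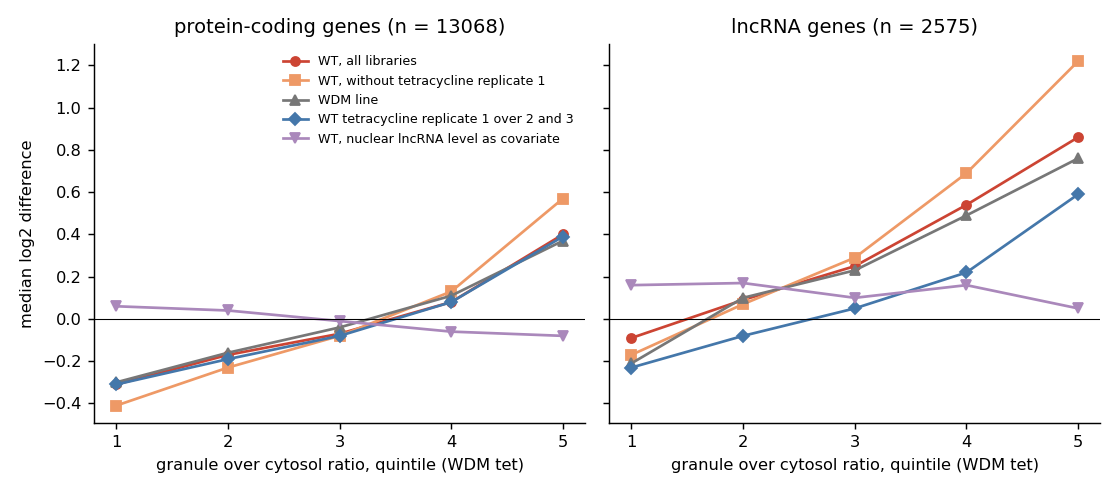
Median log2 difference of protein-coding genes (left, n = 13068) and lncRNA genes (right, n = 2575) in 5 equal bins of the granule over cytosol ratio of tetracycline-treated WDM cells. Lines are the WT arsenite effect (from -0.31 to 0.40 for protein-coding genes), the same without tetracycline replicate 1, the same effect in the WDM line, tetracycline replicate 1 over replicates 2 and 3 (from -0.31 to 0.39) and the WT effect with the nuclear lncRNA level as covariate (from 0.06 to -0.08). The WDM effect and the ratio share the WDM tetracycline cytosol libraries, which ties them together, so that curve is no independent check.

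Some noncoding and splicing RNAs rose whether or not the covariate was fitted. Of 19 small nucleolar RNA host genes, whose spliced RNAs are usually degraded during translation, 5 rose and 5 fell (median -0.22). Each count is 26.3% of the list, against 13.7% and 15.4% of all genes, and without tetracycline replicate 1 the counts were 5 and 9. SNHG12, SNHG17, SNHG15, SNHG1 and ZFAS1 rose by 0.37 to 0.88 in every fit that left out a library, and all 5 rose with the covariate, which left none of the list falling. SNHG1 (chromosome 11, 62851984 to 62855953) had 82.1, 103 and 113 CPM against 137, 142 and 145 CPM. Tetracycline replicate 1 was its lowest library, and the log2 fold change was 0.51 (SE 0.106, with an edgeR Benjamini-Hochberg adjusted p of 0.00173), or 0.92 with the covariate. In the granule fraction 15 of the 19 fell and none rose, SNHG1 by 1.37. Of 20 SR splicing factors and CLK kinases 3 rose (15.0%, near the 13.7% of all genes) and 2 fell (10.0%), with a median of 0.04. Only 1 of the 3 rose in every fit that left out a library. CLK2 (chromosome 1, 155262868 to 155278491), a kinase of splicing factors that regulates the splicing of its own RNA, was among the 3. It had 29.7, 32.9 and 31.4 CPM against 52.3, 52.8 and 54.3 CPM and rose by 0.76 (edgeR Benjamini-Hochberg adjusted p 2.47e-05). SFPQ (chromosome 1, 35176378 to 35193145), a paraspeckle protein, had 488, 511 and 499 CPM against 668, 672 and 693 CPM and rose by 0.44.

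The rule for named genes also took lncRNAs with large rises at low counts. LINC00862 had 1.86, 1.38 and 1.15 CPM against 7.5, 10.0 and 6.56 CPM (log2 fold change 2.43), and LINC01783 had 1.86, 2.94 and 3.26 CPM against 9.51, 11.5 and 8.99 CPM (1.91). IDI2-AS1 had 2.16, 2.07 and 2.11 CPM against 6.88, 8.07 and 6.04 CPM (1.72). These 3 and LINC02340 rose with the covariate, and so did the coding genes AKNAD1 (2.13) and ZNF34 (1.70). Whether reads were counted by strand is not given in the sources used here, so reads of antisense genes and of their partners cannot be told apart, and the same holds for IER2, whose exons lie partly opposite another gene. LINC01619 and PDC-AS1 rose by 1.77 and 1.75, with tetracycline replicate 1 the highest of its group in each, and by 0.56 and 0.72 with the covariate, where PDC-AS1 was not called. Among abundant RNAs, TRIO, a guanine nucleotide exchange factor, rose by 0.32 and BRD2, a bromodomain protein, by 0.28. TRIO had 406 CPM in tetracycline replicate 1, 310 and 301 CPM in the others and 412 to 430 CPM with arsenite. The noncoding RNA XIST rose by 0.80 with overlapping groups, and neither it nor TRIO kept that direction with the covariate (-0.21 and -0.17). BRD2 was not called with it either (0.12).

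Of 17 stress granule scaffold and TIA1-family genes 3 rose (17.6%) and 2 fell (11.8%), shares near those of all genes, with a median of -0.07. These were 4 and 5 without tetracycline replicate 1. Among them G3BP1, the core scaffold, had 560, 690 and 765 CPM against 566, 567 and 605 CPM and was not called. TIAL1 (chromosome 10, 119571802 to 119597029), the paralog of TIA1, had 44.8, 34.3 and 31.3 CPM with tetracycline and 62.9, 57.2 and 51.0 CPM with arsenite. It rose by 0.63 (SE 0.141, with an edgeR Benjamini-Hochberg adjusted p of 0.00317) without overlap, and its log2 fold change was 0.03 with the covariate. ATXN2 rose by 0.73 and UBAP2L by 0.27, while the helicase gene DDX3X fell by 0.40 and CNBP by 0.36, and none of the 5 was called with the covariate. Of 28 processing-body and mRNA decay genes 2 rose (AGO3 and PAN3) and 2 fell (DCP2 and CNOT7), by 0.27 to 0.61. Each count is 7.14% of the list, under the 13.7% that rose and 15.4% that fell over all genes. None of the 4 was called with the covariate, where 1 other member rose and 8 fell, and without tetracycline replicate 1 10 rose and 3 fell.

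Levels in WT cells without tetracycline show which changes brought a gene back towards that state. These comparisons share the tetracycline or the arsenite libraries, so values are only set side by side. TNFRSF10D, a decoy receptor of the death ligand TRAIL, had a mean of 100 CPM without tetracycline, 209 CPM with it and 110 CPM with arsenite, so that its fall of 0.92 left it 0.14 above untreated cells. That fall was -0.55 and not called with the covariate. IGFBPL1 went from 3.20 to 6.10 to 3.29 CPM, HSPA1B from 706 to 437 to 629 CPM and TIAL1 from 65.1 to 36.8 to 57.0 CPM. EGR1 (1.81, 1.55 and 108 CPM) and FOS (2.59, 3.85 and 116 CPM) had no such earlier change.

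The WT and WDM responses were compared as those of lines, since each allele is carried by a single line and line and mutation cannot be told apart. TNFRSF10D, for example, had 209 ± 38.1 CPM in WT and 76.2 ± 6.37 CPM in WDM with tetracycline alone (SD, n = 3). No gene was called for the difference between the WT and WDM responses by edgeR's quasi-likelihood test (331 at an unadjusted p under 0.05, lowest Benjamini-Hochberg adjusted p 1), and none by DESeq2. The 3 genes with the smallest unadjusted p and a group mean of at least 5 CPM were COL5A2, NFIL3 and F12. Their log2 fold changes were 0.03, -0.18 and 0.31 in WT and -0.63, 0.49 and -0.53 in WDM. EGR1 and FOS rose by 6.73 and 5.52 in WDM. EGR2, a relative of EGR1, had a log2 fold change of 0.68 in WT, not called (0.894, 1.12 and 0.705 CPM against 1.78, 1.58 and 1.03 CPM), and 3.40 in WDM (edgeR Benjamini-Hochberg adjusted p 0.000171), a difference of -2.72 (SE 0.71) that was not called. For AP-1 genes 8 of 14 rose in each line, with medians of 0.76 and 0.73.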

How the data were processed

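RNA of 30 libraries was sequenced, 3 for each of 10 groups of cell line, treatment and fraction, of which 6 form the comparison. Per the labels' protocols, libraries were made with a stranded total RNA kit after ribosomal RNA removal. The authors deposited whole-number counts per gene, as one table, and nothing was normalized in it. The submitters' processing notes name Trimmomatic, STAR, Picard, featureCounts and GRCh38. Their versions and roles, the annotation release and the strand setting of the counting are not given in the sources used here. Of 60664 gene identifiers 60463 were found in GENCODE v44 (GRCh38), which gave biotypes.

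The 18 cytosol libraries were fitted together with group means in edgeR 4.0.16 (R 4.3.3), with filterByExpr (minimum count 10, minimum total 15), TMM factors, a robust quasi-likelihood test and Benjamini-Hochberg adjustment over 16670 genes at 0.05. The 12 granule libraries were fitted separately, and the granule over cytosol ratio, with 0.5 CPM added to each, was used only to order genes. The coefficient of variation between replicates was 0.103 in cytosol. A floor of 3 counts covers counting error only. The scripts were tested on simulated data, and DESeq2 1.42.0 was an alternative.

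The gene lists and comparisons were chosen with earlier results of these data known. Named genes were up to 15 rises and 15 falls that had a symbol, groups without overlap and 5 CPM or more on average where higher, ordered by log2 fold change, and up to 5 of the most abundant called genes each way, TIA1 and TIAL1, list members, and 3 genes of the line comparison. The last 5 lists, the covariate (the mean log2 CPM, prior count 2, of 11 nuclear lncRNAs), the GC trend offset and the blocked fit of 6 libraries were added after seeing the data. Other alternatives were RLE and library-size scaling, no filter, no mitochondrial genes, only the groups compared, each library left out, and untreated cells as control.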

Additional observations from a re-analysis of the deposited data

How the results depend on the processing

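Among 41 named genes, the call and direction held for all 41 with DESeq2, RLE scaling, the GC trend offset and without tetracycline replicate 1, for 40 without the low-count filter, for 37 with library size alone, for 35 with only the groups compared, for 34 to 36 when another library was left out, for 32 against untreated cells and for 23 with the nuclear lncRNA covariate. The main fit called 4838 genes and DESeq2 4537, and the genes shared between these calls were not counted. With only the groups compared 2737 were called (1497 higher, 1240 lower, 18 lower by at least 1 on the log2 scale), and with the covariate 2388 (880 higher, 1508 lower, 211 and 129 by at least 1). Library size alone gave 1002 lower (18 by at least 1), and untreated cells as control 223 lower by at least 1. Leaving out each library gave 2440 to 7204 calls, 1215 to 3370 higher, 1225 to 3834 lower, 481 to 1346 higher and 24 to 52 lower by at least 1; the highest of each came without tetracycline replicate 1. The cause of these shifts was not tested. TNFRSF10D (0.14), IGFBPL1 (0.04), HSPA1B (-0.17) and TIAL1 (-0.19) had the opposite sign against untreated cells, and XIST (-0.21), TRIO (-0.17), RPL4 (0.03) and RPL7A (0.05) with the covariate, none of them called. Deviations of same-numbered libraries correlated at 0.215, 0.0471 and 0.259, and those of other-numbered libraries at -0.265 to 0.0906. Tetracycline replicates 1 and 3 correlated best with the same number, and replicate 2 with arsenite replicate 3 (0.0906). These values do not settle whether the numbers pair libraries, and the main fit did not pair them. With the replicate block 5896 genes were called (2751 higher, 3145 lower, 796 and 35 by at least 1), and with the block on only the groups compared 4777, of which 20 were lower by at least 1. The difference between lines gave 0 calls by edgeR (331 at an unadjusted p under 0.05), with the replicate block, by DESeq2 and when any library was left out. Depth limits genes of a few counts, and 190 of the 727 larger rises reached 5 CPM with arsenite.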

Other observations

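Gene structure went with the response in the same way as the granule ratio. Of 47 lncRNA genes with 10 or more introns 51.1% rose and none fell (median log2 fold change 0.76), and of 519 without introns 11.9% rose and 3.28% fell (median 0.06). Among protein-coding genes 16.5% of those with 10 or more introns rose and 12.2% fell, against 5.83% and 24.5% of those with none. Of 338 processed pseudogenes, intronless copies of mRNAs, 0.592% rose and 14.2% fell. With the covariate the medians of the lncRNA classes were 0.11 and 0.10.

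Zinc-finger genes counted 55 higher (13.6%) and 12 lower (2.96%) of 405 tested (median 0.10), and with the covariate 50 and 18. Without tetracycline replicate 1 they counted 79 and 28. Over all genes 13.7% rose and 15.4% fell, so the share of zinc-finger genes that rose was near that of all genes. Of 3 lists chosen after the values were seen, SLC transporters fell in 62 of 197 (31.5%, median -0.19). TMEM transmembrane genes fell in 66 of 161 (41.0%, median -0.29) and proteasome subunits in 11 of 31 (35.5%, median -0.30). With the covariate 37, 29 and 2 members fell, and without tetracycline replicate 1 64, 75 and 25. Of 14 glycolytic enzyme genes 1 fell (7.14%), or 9 without tetracycline replicate 1. Of 20 splicing factors of the SR family and CLK kinases 3 rose (15.0%; CLK2, CLK3 and TRA2A) and 2 fell (10.0%; SRSF8 and SRSF9).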
